A study of Mus musculus with 24 samples.

Results

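The insulin receptor substrates and the phosphoinositide 3-kinase (PI3K) genes of early B lymphoid cells were examined as a group of 9 genes, taken by symbol from the 24421 genes of each count table. The 9 genes were the adaptors Irs1 and Irs2, the catalytic subunits Pik3cd and Pik3cg, the regulatory subunit Pik3r1, the adaptor Pik3ap1, the lipid phosphatase Inpp5d, and the kinases Akt1 and Akt2. All 9 were present in every table and all 9 passed the filter on low counts in both cell populations. RNA-seq libraries came from mice with 4 genotypes, from common lymphoid progenitors (CLPs) sorted as Lin-IL-7R+ and from B cell progenitors, for which the gate was B220+IgM-IL-7R+, 3 libraries for each population and genotype and 24 libraries in all. The genotypes were labelled PLCgamma1+/+PLCgamma2+/+ (WT below), PLCgamma1-/-PLCgamma2+/+ (PLCγ1-deficient), PLCgamma1+/+PLCgamma2-/- (PLCγ2-deficient) and PLCgamma1-/-PLCgamma2-/- (double-deficient), and the comparisons asked how loss of one or both phospholipase Cγ enzymes altered expression in these progenitors. All cells were donor-derived (CD45.2+) and had developed in lethally irradiated wild-type CD45.1+ recipients of transplanted bone marrow. Plcg1 was deleted from a floxed allele by Mx-1 driven Cre after PolyI:C injection of the donors, so deletion was not restricted to lymphoid cells, whereas the Plcg2 deletion was germline. CLP and B cell progenitor libraries with one mouse number came from one recipient, 12 recipients in all, and the number of donors behind the 3 recipients of a genotype was not stated, so the tests measure the spread between recipients.

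PI3K enzymes phosphorylate the membrane lipid PIP2 to PIP3, which recruits and activates Akt. Irs1 and Irs2 are large adaptors that carry the signal of insulin, IGF-1 and several cytokine receptors to the p85 regulatory subunit of PI3K, which Pik3r1 encodes. Pik3cd and Pik3cg encode the p110δ and p110γ catalytic subunits that leukocytes use, Pik3ap1 encodes BCAP, an adaptor that links B cell receptors to PI3K, and Inpp5d encodes SHIP1, which removes a phosphate from PIP3. Akt inhibits FoxO transcription factors, which in B cell progenitors drive genes such as Il7r and Rag1. PLCγ enzymes use the same lipid, PIP2, as their substrate.

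Reads on genes numbered 4232345 to 33219995 per CLP library and 1479582 to 25057223 per B cell progenitor library, so that 3 reads corresponded to between 0.0903 and 2.03 CPM, the count scaled to library size. The share of reads on no gene was 17.9% to 45.2% in CLPs and 59.9% to 87.3% in B cell progenitors, with no overlap, and Tsix, which lies on the strand opposite to Xist, had at most 0.4 normalized CPM in any CLP library and at least 4.8 in every B cell progenitor library. Differences between the populations therefore cannot be told apart from a difference in how their libraries were made or counted. The sorted populations shared markers: normalized CPM summed over 12 B lineage genes ranged from 1648 to 8782 in CLP libraries and from 3314 to 10691 in B cell progenitor libraries, and that of the myeloid gene Mpo from 1236 to 4550 and from 617 to 3882. Flt3, a marker of CLPs, stood at 180 to 733 CPM in 4 CLP libraries, 1 of each genotype, and at 24.7 to 118 in the other 8. Normalized CPM of Xist was 1257 to 2410 in all libraries labelled PLCgamma1-/- and 23.6 to 722 in the others. Sex-linked expression and PLCγ1 deficiency therefore cannot be told apart in comparisons of PLCγ1-deficient or double-deficient cells with WT. The same holds for double-deficient against PLCγ2-deficient cells. Plcg2 had 236 ± 27.1 normalized CPM (SD, n = 3) in WT B cell progenitors, 83.4 ± 10.4 in PLCγ2-deficient and 93.0 ± 19.1 in double-deficient ones. Plcg1 had 93.2 ± 12.7 in WT, 73.0 ± 15.8 in PLCγ1-deficient and 130 ± 68.9 in double-deficient B cell progenitors. In CLPs it had 109 ± 5.82, 110 ± 36.5 and 146 ± 51.2 in the same order. A count over the whole gene does not show loss of a floxed exon, so it does not check the PLCγ1 labels.

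In the mm10 (GRCm38) assembly, Irs1 lies on the minus strand at chr1:82233101-82291416 and Irs2 on the minus strand at chr8:10984681-11008458. The catalytic subunit genes Pik3cd (chr4:149649168-149702571) and Pik3cg (chr12:32173473-32208659), together with Pik3r1 (chr13:101680563-101768217), Pik3ap1 (chr19:41272377-41385102) and Akt1 (chr12:112653821-112674884), are also on the minus strand. Inpp5d (chr1:87620312-87720507) and Akt2 (chr7:27591552-27640826) are on the plus strand. The merged GENCODE vM21 exons of the members span from 4.098 kb in Akt1 to 10.079 kb in Pik3r1. How reads were assigned to genes is not given in the sources used here. Irs2 shares 162 exonic bases with a gene on the other strand, 9530052E02Rik, so a small part of its reads may belong to that gene, and no other member overlapped an opposite-strand gene of the tables.

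The promoters of both substrate genes are shown because Irs1 was the member that passed the test between double-deficient and WT B cell progenitors. Irs2 is its closest relative in the list. Each sequence is the plus-sense strand of the gene, 250 bases that end at the base before the annotated RefSeq start (GRCm38.p6), in lower case, with GC boxes (GGGCGG) and the palindromic E box CACGTG in capitals. The Irs1 window is chr1:82291440-82291689 and the Irs2 window chr8:11008930-11009179, both on the minus strand.
Irs1: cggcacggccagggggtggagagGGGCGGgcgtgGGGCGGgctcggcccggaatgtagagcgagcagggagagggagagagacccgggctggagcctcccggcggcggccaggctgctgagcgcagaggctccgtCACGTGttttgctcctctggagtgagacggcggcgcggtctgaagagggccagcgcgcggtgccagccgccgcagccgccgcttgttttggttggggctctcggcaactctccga
Irs2: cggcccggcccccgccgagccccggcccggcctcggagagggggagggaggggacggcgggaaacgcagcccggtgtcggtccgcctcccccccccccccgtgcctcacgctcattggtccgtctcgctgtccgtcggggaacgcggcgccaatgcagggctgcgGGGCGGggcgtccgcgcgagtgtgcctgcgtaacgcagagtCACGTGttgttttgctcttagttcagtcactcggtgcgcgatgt
Both windows were rich in G and C, 72.4% for Irs1 and 72.8% for Irs2, against a median of 52.4% over the 32851 promoter windows of the RefSeq table. Irs1 held 2 GC boxes and Irs2 held 1, a motif found on either strand in 32.7% of all windows. Each also held 1 CACGTG, 115 bases before the start in Irs1 and 44 bases before it in Irs2, against 6.02% of all windows, a motif that was searched after the sequences had been read. The window of Pik3ap1 held 1 CACGTG as well, 172 bases before the start. The forkhead core GTAAACA, which FoxO factors bind, was present in 3.17% of all windows, and neither Irs window contained it. One of the windows of Akt1 and one of the windows of Pik3cg did. The STAT motif TTCNNNGAA (7.02% of all windows) was likewise not in either Irs window, and Akt2 was the member with a match. These matches are descriptions of letters on both strands of a short window and not of factor binding.

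Irs1, the first of the insulin receptor substrates, was the member whose level separated double-deficient B cell progenitors from those of the other genotypes. WT B cell progenitors had 9.13, 10.2 and 5.08 normalized CPM of Irs1 (8.15 ± 2.71, mean ± SD, n = 3). Double-deficient B cell progenitors had 0.990, 0.538 and 0.132 (0.553 ± 0.429). The PLCγ1-deficient libraries had 2.41, 7.95 and 4.45 (4.94 ± 2.80) and the PLCγ2-deficient libraries 1.95, 6.38 and 3.08 (3.80 ± 2.30). All 3 double-deficient libraries were thus below all 9 libraries of the other genotypes, while both single-deficient groups overlapped WT. Separation in either direction was seen for 19.6% of all genes against PLCγ1-deficient and 15.9% against PLCγ2-deficient cells.

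**Figure D1:**
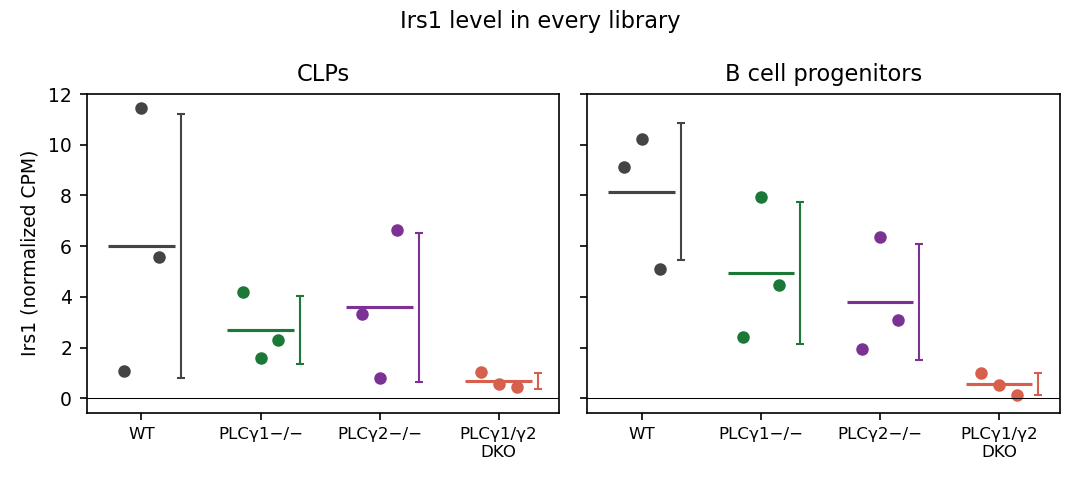
Irs1 in normalized CPM (vertical axis, from 0) in each library, by genotype, in CLPs (left) and B cell progenitors (right). Points are libraries, horizontal lines group means and bars ± 1 SD (n = 3). The 3 double-deficient B cell progenitor libraries, at 0.132 to 0.990, lie below every other B cell progenitor library.

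The log2 fold change of Irs1 between double-deficient and WT B cell progenitors was −4.06 (standard error, SE, 0.73, edgeR adjusted p = 0.0233 over 15001 genes). Irs1 was the only one of the 9 members called in this comparison, with a call defined as an adjusted p of at most 0.05 and a log2 fold change of at least 0.5 in either direction, and 0.893% of all genes tested were called. Irs1 was also among the genes that the study had chosen for display on these samples, so its direction here is not independent evidence. Irs1 counts were low, with 254 reads in the 3 WT libraries together and 16 in the 3 double-deficient libraries (3, 12 and 1), and the pooled rate in WT was 16.5 times that in double-deficient cells (exact 95% interval 9.95 to 29.3, counting error only). The call was lost without WT replicate 1 (adjusted p = 0.0686), WT replicate 2 (0.0955), double-deficient replicate 2 (0.123) or double-deficient replicate 3 (0.121), while the log2 fold change stayed between −4.39 and −3.62 whichever library was left out.

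Against the single-deficient genotypes the differences of Irs1 in B cell progenitors had the same direction but did not pass the test. The log2 fold change of double-deficient cells was −3.53 (SE 0.73, adjusted p = 0.0938) against PLCγ1-deficient cells, whose libraries were equally high in Xist. It was −3.23 (SE 0.74, adjusted p = 0.182) against PLCγ2-deficient cells, whose libraries were lower in Xist. No member was called in these comparisons by edgeR, where 0.213% and 0.153% of all genes were, and Irs1 was the member that had p of 0.05 or less before adjustment in each, beside 16.6% and 11% of all genes. Without PLCγ1-deficient replicate 2 the first difference was −2.91, and without PLCγ2-deficient replicate 2 the second was −2.41. DESeq2 on the same libraries called Irs1 in both (adjusted p = 0.000781 and 0.00684), within a range over all alternatives of 0.000781 to 0.452 and of 0.00684 to 0.817. DESeq2 called 1000 and 152 genes there, where edgeR called 32 and 23. Single deficiency gave smaller differences from WT: −0.53 (SE 0.58, adjusted p = 0.641) for PLCγ1 and −0.83 (SE 0.60, adjusted p = 0.919) for PLCγ2.

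In CLPs, Irs1 varied widely within WT, with 1.06, 11.4 and 5.55 normalized CPM (6.02 ± 5.21). Double-deficient CLPs had 1.05, 0.545 and 0.432 (0.676 ± 0.330), so the highest of them was almost level with the lowest WT library. PLCγ1-deficient CLPs had 4.20, 1.60 and 2.29 (2.70 ± 1.35) and PLCγ2-deficient CLPs 3.33, 0.794 and 6.64 (3.59 ± 2.93), which overlapped the double-deficient range. The log2 fold change of double-deficient against WT CLPs was −3.13 (SE 0.93, edgeR adjusted p = 0.389, unadjusted p = 0.00600) and was not called. It was −2.30 without WT replicate 2 and lay between −3.68 and −2.30 whichever library was left out. DESeq2 on the same libraries called it (adjusted p = 0.0196, range over all alternatives 0.0150 to 0.853). DESeq2 called 170 genes in that comparison and edgeR 14. Against PLCγ1-deficient CLPs the log2 fold change was −1.997 (SE 0.90, adjusted p = 1.00), and against PLCγ2-deficient CLPs it was −2.38 (SE 0.92, adjusted p = 0.595). Without the 4 CLP libraries highest in Flt3, which include WT replicate 1, the difference from WT was −3.55 (adjusted p = 0.0930).

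No member was called by edgeR in any of the 5 genotype comparisons in CLPs. Of all genes, 0.0921% were called in double-deficient against WT CLPs, 0.00658% in PLCγ1-deficient against WT, 0% in PLCγ2-deficient against WT, 0.0263% in double-deficient against PLCγ1-deficient and 0.0526% in double-deficient against PLCγ2-deficient. At an unadjusted p of 0.05 or less the counts of members in the same order were 1, 0, 1, 1 and 3 of 9, beside 7.52%, 2.85%, 3.92%, 4.29% and 7.54% of all genes, and DESeq2 on the same libraries called Irs1 in the first comparison and no member in the others. In PLCγ2-deficient against WT CLPs, where edgeR called no gene at all, 596 genes had an unadjusted p of 0.05 or less and DESeq2 called 11. The deleted gene Plcg2 was thus not called by edgeR there either. It had 205 to 282 normalized CPM in WT and 106 to 134 in PLCγ2-deficient CLPs, without overlap. The lack of a call in CLPs therefore does not show that a member was unchanged. The difference between the double-deficiency effects in the 2 populations was −0.94 on the log2 scale for Irs1 (SE 1.21, adjusted p = 1.00), so a larger effect in B cell progenitors was not shown. In that test 0% of all genes and no member were called by edgeR or by DESeq2, and 235 of 17212 genes (1.37%) and no member had an unadjusted p of 0.05 or less.

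Irs1 levels were set beside the B lineage content of each library, summed over 12 markers including Pax5, Ebf1 and Rag1. The sum ranged from 1648 to 8241 normalized CPM in WT CLPs and from 6368 to 8620 in WT B cell progenitors. It ranged from 3289 to 8782 in double-deficient CLPs and from 3314 to 10691 in double-deficient B cell progenitors, overlapping WT in both populations. With the mean B lineage marker level as a covariate, the log2 fold change of Irs1 in double-deficient against WT B cell progenitors was −4.40 (SE 0.67, adjusted p = 0.00283). That fit also called Irs1 against PLCγ1-deficient (adjusted p = 0.00889) and PLCγ2-deficient cells (adjusted p = 0.0171). The covariate was chosen after seeing the data. With it, 818 genes were called in double-deficient against WT B cell progenitors, where the main fit called 134. The sum over 7 markers of later B cells was 650 to 1026 in WT B cell progenitors and 185 to 506 in double-deficient ones. None of the 7 was at 0 in any library. Not every marker was separated in this way. Ms4a1 had 58.7 to 95.6 normalized CPM in WT and 33.7 to 76.3 in double-deficient B cell progenitors, which overlapped. The part of the later B cell markers in the Irs1 result was not tested. In bulk samples, fewer cells that express Irs1 and less Irs1 per cell cannot be told apart. The sum over 8 myeloid markers was 1510 to 4963 in WT and 3052 to 7716 in double-deficient B cell progenitors. With the myeloid level as a covariate the log2 fold change of Irs1 was −3.59 (SE 0.53, adjusted p = 0.00335), in a fit that called 279 genes.

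**Figure D2:**
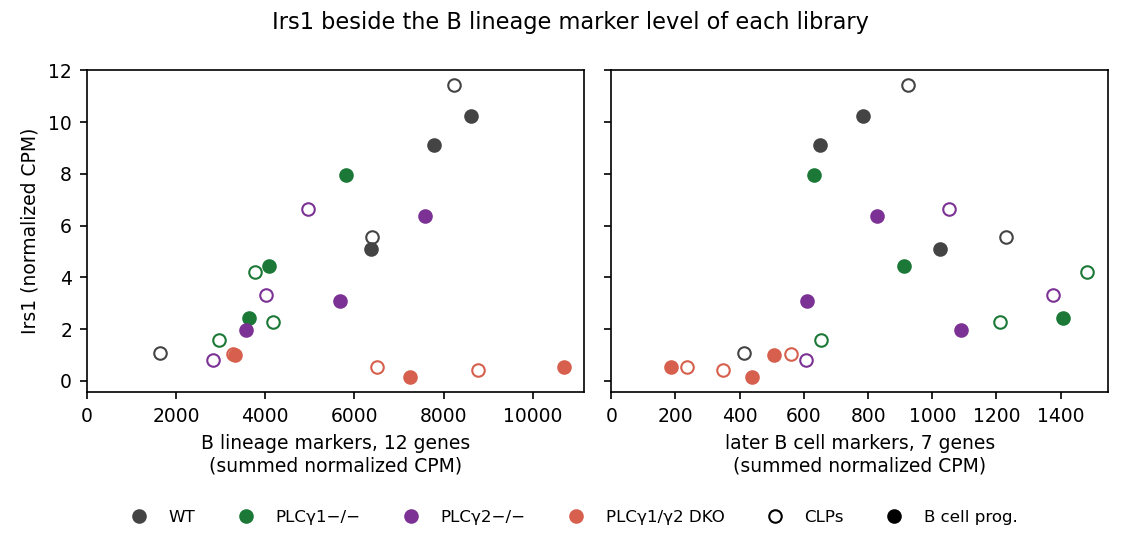
Irs1 (normalized CPM, vertical axis) against the summed level of 12 B lineage markers (left) and of 7 later B cell markers (right), in normalized CPM, 1 point per library. Colours give the genotype, open points CLPs and filled points B cell progenitors. The 6 double-deficient libraries lie between 3289 and 10691 on the horizontal axis of the left panel and between 185 and 560 on that of the right panel.

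Irs2, the other substrate, did not follow Irs1. WT B cell progenitors had 72.6 ± 35.9 normalized CPM (38.9, 68.7 and 110) and double-deficient ones 53.2 ± 30.0 (19.8, 62.0 and 77.8), ranges that overlapped and gave a log2 fold change of −0.43 (SE 0.51, adjusted p = 0.743). In CLPs the means were 72.1 ± 24.4 in WT and 68.7 ± 37.0 in double-deficient cells, a log2 fold change of −0.11 (SE 0.38, adjusted p = 0.964). The largest of the Irs2 differences from WT was in PLCγ1-deficient B cell progenitors (36.1 ± 14.4 normalized CPM, log2 fold change −0.88, SE 0.52, adjusted p = 0.472). Irs2 was one of the most variable members between replicates, with a median coefficient of variation of 44.7% over the 8 groups, against 58.6% for Irs1 and 10.1% for Akt2.

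Of the catalytic subunits, Pik3cd (p110δ) had its highest means in double-deficient cells, and neither it nor Pik3cg (p110γ) passed the test. Pik3cd averaged 467 ± 49.9 normalized CPM in WT, 411 ± 111 in PLCγ1-deficient, 420 ± 40.0 in PLCγ2-deficient and 610 ± 225 in double-deficient B cell progenitors. The last group spread from 396 to 845 and included both lower and higher libraries than WT. Double-deficient cells differed from WT by 0.37 on the log2 scale (SE 0.24, adjusted p = 0.553). In CLPs the corresponding means were 554 ± 42.1, 621 ± 171, 502 ± 72.8 and 713 ± 150 normalized CPM, with a log2 fold change of 0.33 (SE 0.21, adjusted p = 0.761). Double-deficient CLPs differed from PLCγ2-deficient CLPs by 0.47 (adjusted p = 0.653), which did not pass the test. Pik3cg averaged 167 ± 9.59, 142 ± 32.8, 157 ± 38.3 and 144 ± 13.7 normalized CPM in the 4 groups of B cell progenitors in the same order. All 3 double-deficient libraries were below the 3 WT libraries, beside 17.7% of all genes separated in either direction. The log2 fold change of Pik3cg there was −0.24 (SE 0.17, adjusted p = 0.584). In CLPs the 4 means of Pik3cg lay between 155 and 166 normalized CPM.

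Pik3r1, the source of p85α and its shorter forms, passed no test either. Its means were 171 ± 14.5 normalized CPM in WT, 152 ± 6.86 in PLCγ1-deficient, 132 ± 15.8 in PLCγ2-deficient and 160 ± 25.8 in double-deficient B cell progenitors. They were 180 ± 43.5, 181 ± 60.0, 167 ± 51.5 and 170 ± 10.3 in CLPs. Double-deficient cells differed from WT by −0.11 (SE 0.13, adjusted p = 0.759) and −0.12 (SE 0.24, adjusted p = 0.925) on the log2 scale. The PLCγ2-deficient B cell progenitors, at 114 to 145 normalized CPM, were all below WT, at 154 to 182, without passing the test (log2 fold change −0.24, adjusted p = 0.919). Of all genes, 16.4% were separated there in either direction.

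Pik3ap1 and Inpp5d, an activator and an inhibitor of the pathway, were not called by edgeR in any genotype comparison. Pik3ap1 averaged 284 ± 17.97 normalized CPM in WT and 254 ± 134 in double-deficient B cell progenitors, where single libraries reached from 124 to 391. PLCγ1-deficient cells had 193 ± 31.1 and were all below WT, with a log2 fold change of −0.41 (SE 0.36, adjusted p = 0.568). Of all genes, 24.2% were separated there in either direction. PLCγ2-deficient cells had 254 ± 107. In CLPs the 4 means of Pik3ap1 lay between 189 and 254. Inpp5d averaged 420 ± 39.0 normalized CPM in WT, 319 ± 55.8 in PLCγ1-deficient, 385 ± 93.6 in PLCγ2-deficient and 490 ± 220 in double-deficient B cell progenitors. In CLPs it averaged 482 ± 58.0, 428 ± 132, 386 ± 59.4 and 574 ± 139. The largest difference between CLP groups, 0.54 on the log2 scale for double-deficient against PLCγ2-deficient cells, had an adjusted p of 0.635. Inpp5d and Pik3cd moved together over the 24 libraries with r = 0.907, a description over libraries that share mice and depth.

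Mean Akt1 was lower in every knockout genotype than in WT B cell progenitors, without being called. WT libraries had 298, 368 and 344 normalized CPM (337 ± 35.2). PLCγ1-deficient libraries had 251, 233 and 247 (244 ± 9.34), PLCγ2-deficient libraries 228, 252 and 233 (238 ± 12.6) and double-deficient libraries 230, 301 and 239 (257 ± 38.7). All libraries of both single-deficient genotypes were below all WT libraries, and double-deficient replicate 2 overlapped WT. Separation from WT in either direction was seen for 24.2% (PLCγ1) and 16.4% (PLCγ2) of all genes. The log2 fold changes against WT were −0.33 (SE 0.13, unadjusted p = 0.0226, adjusted p = 0.467) for PLCγ1, −0.37 (SE 0.13, unadjusted p = 0.0130, adjusted p = 0.919) for PLCγ2 and −0.40 (SE 0.13, unadjusted p = 0.00785, adjusted p = 0.209) for double deficiency, none of them called. With DESeq2 the adjusted p for double deficiency was 0.0303 (range over all alternatives 0.0303 to 0.621), with a log2 fold change of −0.40 that stayed under the fold threshold. The 3 comparisons share the WT libraries. In CLPs the means were 382 ± 86.2 in WT, 330 ± 32.9 in PLCγ1-deficient, 296 ± 44.8 in PLCγ2-deficient and 340 ± 14.8 in double-deficient cells, with overlap of every group with WT.

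Akt2 averaged 81.4 ± 3.59 normalized CPM in WT, 59.0 ± 10.2 in PLCγ1-deficient, 69.1 ± 3.75 in PLCγ2-deficient and 70.2 ± 8.69 in double-deficient B cell progenitors. Both single-deficient groups lay below WT in every library, a separation that in either direction 24.2% (PLCγ1) and 16.4% (PLCγ2) of all genes showed. The log2 fold change of −0.34 in PLCγ1-deficient cells (SE 0.12, unadjusted p = 0.0128) had an adjusted p of 0.467. In CLPs Akt2 was nearly flat, at 105 ± 12.8, 100 ± 12.8, 93.9 ± 7.57 and 108 ± 2.44 in the same order.

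**Figure D3:**
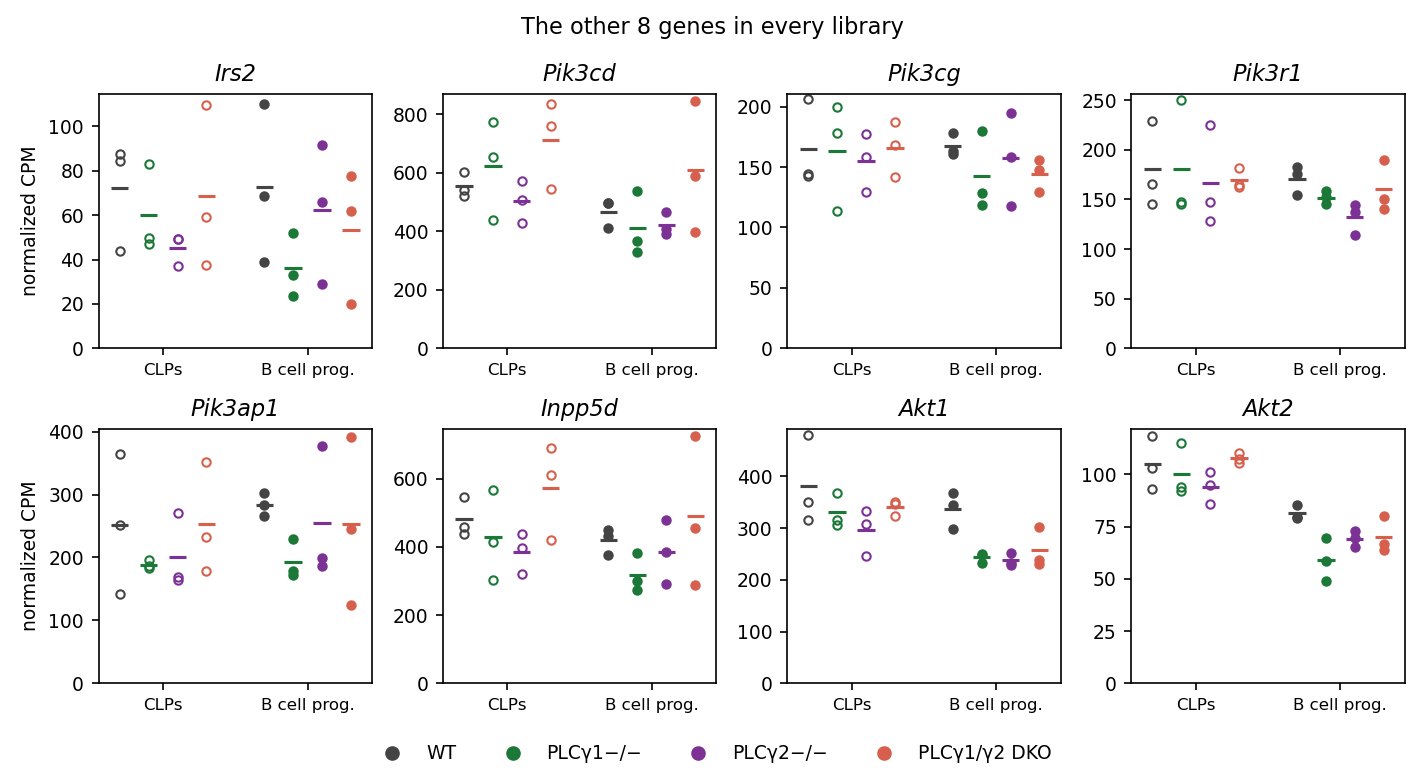
Normalized CPM (vertical axis, from 0) of the other 8 members in each library, by genotype, CLPs at the left of each panel (open points) and B cell progenitors at the right (filled points). Lines are group means (n = 3). Mean Akt1 and mean Akt2 are highest in WT among the B cell progenitors, and mean Akt2 is lower in B cell progenitors than in CLPs in every genotype.

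Over the 9 members, the median log2 fold change against WT in B cell progenitors was −0.23 for double deficiency, −0.33 for PLCγ1 deficiency and −0.08 for PLCγ2 deficiency, beside medians of −0.02, 0.06 and 0.03 over all genes tested. Lower than WT were 7, 9 and 7 of the 9 members. No member was called in the 2 single-deficient comparisons by edgeR or DESeq2, where edgeR called 0.06% and 0.0467% of all genes, and 2 and 1 members had an unadjusted p of 0.05 or less, beside 9.93% and 2.84% of all genes. The libraries of the 2 groups did not overlap for 2, 3 and 3 members (Irs1 and Pik3cg; Pik3ap1, Akt1 and Akt2; Pik3r1, Akt1 and Akt2), all of them lower than WT. Of all genes, 8.36%, 17.9% and 13% were separated with lower levels than WT, and 17.7%, 24.2% and 16.4% in either direction. In CLPs the median over the members was −0.03 for double deficiency, −0.19 for PLCγ1 deficiency and −0.32 for PLCγ2 deficiency, beside −0.03, −0.01 and 0.01 over all genes. The libraries did not overlap there for 1 member (Irs1), 0 and 0, against 13.7%, 6.07% and 7.58% of all genes in either direction.

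**Figure D4:**
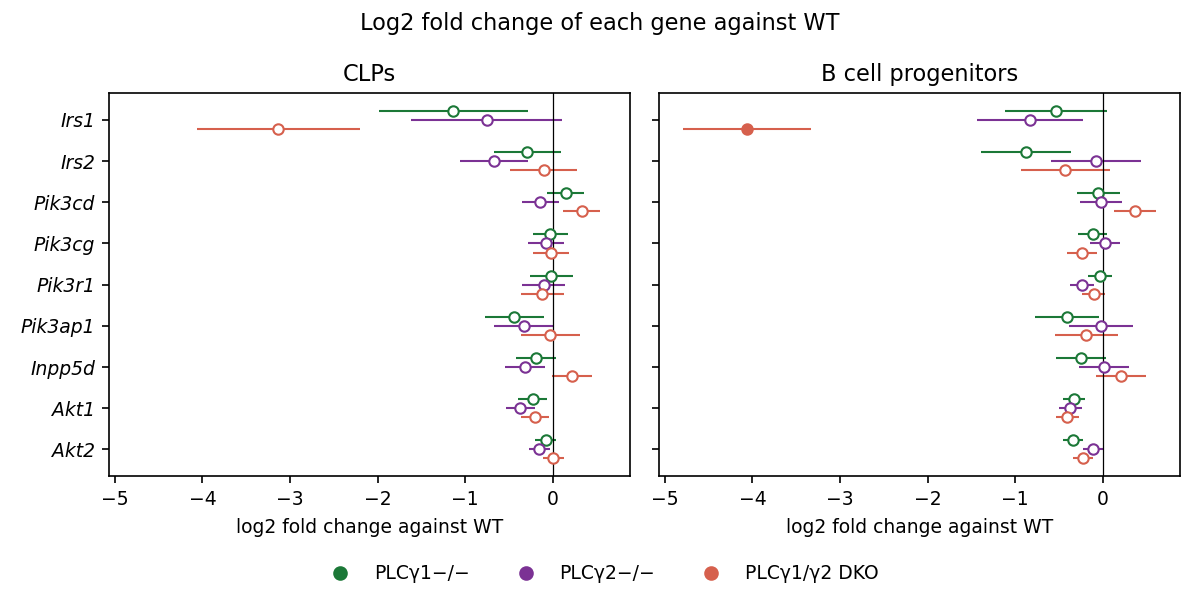
Log2 fold change against WT (horizontal axis) of the 9 members in CLPs (left) and B cell progenitors (right) for PLCγ1-deficient, PLCγ2-deficient and double-deficient (DKO) cells. Bars are ± 1 standard error and a filled point is a call. Irs1 in double-deficient B cell progenitors, at −4.06, is the filled point, and the other 8 members lie between −0.88 and 0.37.

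Between the populations, Akt2 was the member that passed the test, lower in B cell progenitors than in CLPs in 2 of the 4 genotypes. The log2 fold change of Akt2 was −0.63 (SE 0.12, adjusted p = 0.00205) in PLCγ1-deficient and −0.59 (SE 0.12, adjusted p = 0.00363) in double-deficient mice. It was −0.34 (adjusted p = 0.120) in WT and −0.32 (adjusted p = 0.174) in PLCγ2-deficient mice, which were not called. In each genotype all 3 B cell progenitor libraries were below all 3 CLP libraries, a separation in either direction that 20%, 25.8%, 18.2% and 20.7% of all genes showed in WT, PLCγ1-deficient, PLCγ2-deficient and double-deficient mice. Akt1 (PLCγ1-deficient and double-deficient) and Pik3cd (WT) were also lower without overlap. Whether the genotypes differ in this respect was not tested except for double deficiency against WT (difference −0.24, adjusted p = 1.00). Without the 4 CLP libraries highest in Flt3 both calls were lost (adjusted p = 0.0600 and 0.0868) with log2 fold changes of −0.64 and −0.59. The call in double-deficient mice was also lost without any one of the 3 double-deficient CLP libraries (adjusted p = 0.0744, 0.0619 and 0.0536 for replicates 1, 2 and 3) or without double-deficient B cell progenitor replicate 1 (0.0567) or 3 (0.135), while the log2 fold change stayed between −0.67 and −0.52 whichever library was left out.

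Of all genes, 3.5% were called between the populations in WT, 3.78% in PLCγ1-deficient, 3.21% in PLCγ2-deficient and 3.24% in double-deficient mice, with a median over all genes of 0.13 in PLCγ1-deficient mice. Without genes that overlap an opposite-strand gene, the number of calls in WT fell from 602 to 179, and Akt2 was still called in both genotypes (adjusted p = 0.00700 and 0.0227). Irs1 had a log2 fold change between the populations of 0.49 in WT (SE 0.75, adjusted p = 0.840) and 1.07 in PLCγ1-deficient mice (adjusted p = 0.363). It was 0.39 in PLCγ2-deficient and −0.45 in double-deficient mice, and none of these differences was called.

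Levels of different members were compared per kilobase of GENCODE exon, which may differ from the regions counted in the deposited files. In WT B cell progenitors Akt1 (82.2 ± 8.60 normalized CPM per kb) and Pik3cd (74.6 ± 7.98) stood highest and overlapped each other. Inpp5d (55.2 ± 5.13) and Pik3ap1 (51.0 ± 3.22) followed and also overlapped. Pik3cg (19.9 ± 1.14), Pik3r1 (16.9 ± 1.44), Irs2 (11.5 ± 5.67) and Akt2 (11.4 ± 0.504) formed a lower tier. Irs1 was the lowest, at 0.891 ± 0.296 normalized CPM per kb. The order in WT CLPs was the same except that Akt2 (14.7 ± 1.80) stood above Irs2 (11.4 ± 3.86), neighbours that overlapped. In double-deficient B cell progenitors Pik3cd (97.4 ± 36.0) and Inpp5d (64.5 ± 28.9) stood above Akt1 (62.7 ± 9.45), again with overlap, and Irs1 was at 0.0605 ± 0.0470. Per kilobase, every library of every group had more Irs2 than any library of that group had Irs1.

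The genes whose log2 CPM followed each member most closely over the 24 libraries were sought among 9536 genes with a mean of at least 10 normalized CPM. For Irs1 they were Myl4 (r = 0.912), Tmprss3 (0.902) and Gpr155 (0.900), and for Irs2 Atf4 (0.917), Sde2 (0.908) and Brd2 (0.896). For the PI3K subunits they were Fam78a, Scap and Zmynd8 for Pik3cd (0.971 to 0.952), Galnt1, Son and Tax1bp1 for Pik3cg (0.839 to 0.801) and Rftn1, Dexi and Dcaf7 for Pik3r1 (0.921 to 0.892). Pik3ap1 was followed by Bcl7a, Chst3 and Smarca4 (0.927 to 0.922) and Inpp5d by Hdac7, Prkd2 and Zfp608 (0.960 to 0.946). Akt1 was followed by U2af2, Gps2 and Vars (0.934 to 0.928) and Akt2 by Capzb, Osbpl7 and Srf (0.951 to 0.930). These are descriptions over libraries that share mice, populations and depth.

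The rest of the pathway was followed in 6 lists. Of 14 receptors and adaptors upstream of PI3K, 13 were tested in B cell progenitors, and 1, Dok3, fell in double-deficient against WT cells. In that comparison 0.893% of all genes were called. Dok3, an adaptor that dampens B cell receptor signalling, went from 412 ± 43.5 to 187 ± 9.20 normalized CPM (log2 fold change −1.16, SE 0.20, adjusted p = 0.0180). The single-deficient genotypes lay between, at 260 ± 48.2 and 271 ± 67.4, and were not called against WT. Dok3 was not called by edgeR in double-deficient against either single-deficient genotype. Blnk, an adaptor of the B cell receptor, had 426 ± 72.7 in WT and 540 ± 314 in double-deficient cells and was not called. Of 10 other PI3K subunits, 1 fell in double-deficient against WT B cell progenitors: the class II kinase Pik3c2b, from 54.8 ± 4.82 to 23.99 ± 5.78 normalized CPM (log2 fold change −1.19, SE 0.25, adjusted p = 0.0446). Pik3c2b was likewise not called by edgeR against either single-deficient genotype. Pik3ca, which encodes p110α, had 164 ± 17.7 and 138 ± 24.2. The class II kinase Pik3c2a was the only gene of these lists called between the populations in WT, 0.75 higher in B cell progenitors on the log2 scale (adjusted p = 0.0185).

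None of the 10 phosphoinositide phosphatases and none of the 11 kinases and phosphatases around Akt was called by edgeR in a genotype comparison. At an unadjusted p of 0.05 or less there were 3 and 0 of them in double-deficient against WT B cell progenitors, beside 12.3% of all genes. Btk, a kinase that PIP3 recruits, had 192 ± 18.9 normalized CPM in WT and 203 ± 41.5 in double-deficient B cell progenitors, and Sgk1, a relative of Akt, had 191 ± 47.3 and 313 ± 183. None of the FoxO factors was called by edgeR, and none had an unadjusted p of 0.05 or less in double-deficient against WT cells of either population. Foxo1 had 290 ± 45.2 normalized CPM in WT and 350 ± 210 in double-deficient B cell progenitors.

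Of 15 genes known as FoxO targets, 1 was called, the lymph node homing receptor Ccr7, which fell. It went from 58.6 ± 23.4 to 11.9 ± 1.95 normalized CPM in double-deficient against WT B cell progenitors (log2 fold change −2.29, SE 0.27, adjusted p = 0.00243). It also fell in CLPs (log2 fold change −2.33, adjusted p = 0.0250) and in double-deficient against PLCγ1-deficient B cell progenitors (log2 fold change −1.65, adjusted p = 0.0457). Of all genes, 0.893%, 0.0921% and 0.213% were called in these comparisons, in the order given. No target was called by edgeR in double-deficient against PLCγ2-deficient B cell progenitors (smallest adjusted p = 0.181). The same held in CLPs against PLCγ1-deficient (0.101) and PLCγ2-deficient cells (0.336). Ccr7 averaged 34.2 ± 3.70 in PLCγ1-deficient and 25.8 ± 7.29 in PLCγ2-deficient B cell progenitors, which were not called against WT. The more abundant targets Rag1 (837 ± 193 in WT and 1223 ± 887 in double-deficient B cell progenitors) and Il7r (429 ± 99.4 and 316 ± 149) were not called. The median log2 fold change over the 15 targets in double-deficient against WT B cell progenitors was −0.26, with 10 lower and 5 higher, beside −0.02 over all genes. Against WT it was −0.36 in PLCγ1-deficient cells, with 13 lower and 2 higher, and −0.25 in PLCγ2-deficient cells, with 12 lower and 3 higher. The medians over all genes were 0.06 and 0.03 there. In double-deficient against PLCγ1-deficient and PLCγ2-deficient cells the medians over the targets were 0.070 and 0.066.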

How the data were processed

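Poly(A) RNA libraries of 24 samples were sequenced by the authors on an Illumina NextSeq 500 and aligned with STAR 2.5.0a to mm10 through BaseSpace. The deposited files hold raw counts of reads per gene symbol, without normalization, and the program and strand setting behind the counts are not given in the sources used here. The 2 closing lines of each file, for reads on no gene (17.9% to 87.3%) and ambiguous reads (0.110% to 1.44%), were left out. The members and gene lists were chosen with earlier results of these data known.

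The main test was that of edgeR 4.0.16 (R 4.3.3; TMM, filterByExpr, quasi-likelihood F test, Benjamini-Hochberg adjustment over all genes), with 1 fit per population over 4 genotypes (15209 genes tested for CLPs, 15001 for B cell progenitors) and 1 fit of all 24 libraries (17212 genes) for comparisons between populations. The standard error (SE) is the log2 fold change divided by the root of F. The test was tried on simulated counts. Normalized CPM used TMM factors over all 24 libraries, and log2 CPM a prior count of 2. Alternatives included DESeq2 1.42.0, RLE factors, no filter, 2 genotypes alone, covariates and each library left out. Gene positions and exon lengths came from GENCODE vM21. All members were named. Of the other lists, genes called between genotypes, up to 3 called between populations in WT and examples with the highest CPM were named. Some genes that this rule names are not reported here.

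Between replicates of a group, chi-square divided by its degrees of freedom was 9.62 to 147 over 24 pairs. No library was thus a copy of another in its group, and pairs across groups were not compared in this way. CLP and B cell progenitor libraries with the same mouse number came from one animal. Their deviations from the group means correlated between −0.319 and 0.548 (median 0.237, 12 pairs).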

Additional observations from a re-analysis of the deposited data

How the results depend on the processing

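The log2 fold change of Irs1 in double-deficient against WT B cell progenitors stayed between −4.40 and −3.59 under all alternatives, but the number of members called there was 0 to 1 when each library was left out in turn. The marker covariates, the omission of the 4 CLP libraries highest in Flt3 and the omission of genes overlapping an opposite-strand gene were chosen after seeing the data. Members called rose from 0 to 1 (Irs1) in double-deficient against WT CLPs with both forms of DESeq2 (all libraries or 2 genotypes alone), in double-deficient against PLCγ1-deficient B cell progenitors with both forms of DESeq2, with the replicate block and with the B lineage or myeloid covariate, and against PLCγ2-deficient B cell progenitors with both forms of DESeq2 and with the B lineage covariate. Between populations the number fell from 1 (Akt2) to 0 in PLCγ1-deficient and in double-deficient mice without the 4 Flt3-high CLP libraries, and ranged from 0 to 1 in double-deficient mice with each library left out. The causes were not tested, except that leaving libraries out removes samples.

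Small differences between double-deficient and WT CLPs changed sign. Pik3cg was at 0.0069 with no filter, 0.10 with the B lineage covariate, 0.028 with the myeloid covariate, 0.00067 with DESeq2 on 2 genotypes and 0.045 without the Flt3-high libraries. Pik3r1 was at 0.018 with the B lineage covariate, 0.23 with the myeloid covariate and 0.010 without the Flt3-high libraries. Pik3ap1 was at 0.019 with no filter. Akt2 was at −0.051 with the share of reads on no gene as covariate and −0.028 without the Flt3-high libraries. In B cell progenitors Pik3ap1 was at 0.15 with the myeloid covariate, and Irs1 in PLCγ1-deficient against WT cells at 0.19 with the B lineage covariate. Irs1 between populations was at −0.0056 in WT and −0.21 in PLCγ2-deficient mice without the Flt3-high libraries. With each library left out in turn, the CLP differences between double-deficient cells and WT ranged from −0.62 to 0.19 for Irs2, −0.12 to 0.14 for Pik3cg, −0.24 to 0.056 for Pik3r1, −0.34 to 0.37 for Pik3ap1, −0.36 to 0.034 for Akt1 and −0.067 to 0.14 for Akt2. Irs1 in PLCγ2-deficient against WT CLPs ranged from −1.53 to 0.060. In double-deficient against WT B cell progenitors the ranges were −0.81 to 0.018 for Irs2, −0.61 to 0.14 for Pik3ap1 and −0.16 to 0.47 for Inpp5d. Irs1 between populations ranged from −0.0089 to 1.29 in WT, −0.45 to 1.03 in PLCγ2-deficient and −0.80 to 0.045 in double-deficient mice. The cause was not tested.

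Replicate numbers are shared between genotypes, and the labels do not say that a number marks anything shared by mice of different genotypes. Deviations of same-number samples correlated with a median of 0.339 in CLPs (13 of 18 pairs over 0.1) and 0.0808 in B cell progenitors (9 of 18), against −0.193 and −0.0794 for other numbers, and 18 of 24 libraries correlated best with their own number, a hint from the data and not from the design. Since not every pair was over 0.1, the samples were not treated as paired. With the replicate number as a block (replicate block) the log2 fold change of Irs1 in double-deficient against WT B cell progenitors was −4.27 (edgeR adjusted p = 0.00590). Blocking on the mouse changed no call of a member between populations. Over all genes, double-deficient against WT B cell progenitors gave 134 calls, 550 with the replicate block, 413 and 667 with DESeq2 on all and on 2 genotypes, 238 with edgeR on 2 genotypes, 818 and 279 with the B lineage and myeloid covariates, 213 with the share of reads on no gene, and 50 to 184 with each library left out. Over all alternatives the calls ranged from 0 to 170 in double-deficient against WT CLPs (14 as reported), 0 to 13 and 0 to 11 in the single-deficient CLPs (1 and 0), 0 to 120 and 0 to 166 against them (4 and 8), 6 to 115 and 0 to 19 in the single-deficient B cell progenitors (9 and 7), 0 to 1615 and 7 to 724 against them (32 and 23, with RLE factors 17 and 22), and 100 to 1476 between populations (552 to 650). With DESeq2, which tested more low genes, the median over all genes shifted to 0.57 in PLCγ1-deficient and 0.26 in PLCγ2-deficient against WT B cell progenitors. Depth limits Irs1 most, with 1 to 181 reads in a library.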
